A study of Mus musculus with 12 samples.

Results

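The genes described here were the 46 DNA replication and S phase genes of a fixed list of symbols, read as every probe whose gene name on the array was one of them. All 46 names were on the array, with 63 of its 55681 probes, and 45 of the 46 were among the 22761 genes tested. The exception was Ccne2, which encodes the second E-type cyclin, and its single probe was not well above background on any of the 12 arrays. The list was chosen by function, and no measured value entered its rule, but earlier results of these data were known when it was chosen.

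The arrays were one-colour Agilent whole-genome arrays of total RNA from the aorta of male mice of mixed strain, 129S5/SvEvBrd, C57BL6 and SJL. Both genotypes were sampled without challenge and at day 3 of infusion by osmotic minipump, a model of aortic dissection. AngII (angiotensin II) was given at 1000 ng/kg/min, combined with 150 mg/kg/day of β-aminopropionitrile (BAPN). The smSocs3-KO mice were homozygous for a floxed Socs3 allele and carried Cre under the SM22 promoter, which is active in smooth muscle. The WT mice were Socs3fl/fl littermates without Cre, so that every mouse carried the floxed allele. Each of the 4 groups held 3 arrays, and the labels do not state that each array came from a separate animal. The p-values set group differences against the spread between these samples, which need not be the spread between animals. The comparisons addressed what the challenge changed and whether the smooth muscle deletion changed it.

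Every level below is a log2 signal relative to the 75th percentile of the same array, and every difference is a difference of such log2 levels. Values are given in the order of replicates 1, 2 and 3 (WT before challenge), 1, 3 and 4 (WT at day 3), 1, 3 and 4 (smSocs3-KO before challenge) and 2, 3 and 5 (smSocs3-KO at day 3). Between 55.4% and 61.2% of the gene spots of an array were well above background. Socs3 was 0.30, 0.32 and 0.75 on the WT arrays before challenge and 0.24, 1.14 and 1.46 under the smSocs3-KO label. The WT arrays at day 3 gave 2.21, 2.30 and 0.64, and those labelled smSocs3-KO 3.31, 2.28 and 4.13. Socs3 was therefore not lower under the smSocs3-KO label at either time, in RNA of whole aorta in which other cell types keep the gene (differences of 0.49 before challenge and 1.52 at day 3, limma adjusted p = 1.0 and 0.208). All 6 WT arrays and replicate 1 labelled smSocs3-KO before challenge lay on slide 1, and the other 5 arrays on slide 2. Genotype and slide therefore cannot be told apart at day 3, and only in part before challenge.

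DNA replication begins when ORC, CDC6 and CDT1 load the MCM helicase on chromatin, and geminin limits loading to a single round per cycle. In S phase the helicase is activated together with CDC45 and GINS, primase and polymerase α start the strands, and polymerases δ and ε extend them on the PCNA clamp that the RFC loader places. Many of these genes are targets of E2F, which the retinoblastoma proteins hold inactive in resting cells, and most smooth muscle cells of an adult aorta are resting.

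Promoter sequences were read for the members because E2F target genes often carry a short E2F site near the start. RefSeq promoter windows of the build GRCm38.p6, from 250 bases before the start to 50 after it, were found for 36 of the 46 members. The letters TTTCCCGC, TTTGGCGC, TTTCGCGC and TTTGCCGC were searched on both strands, and matches could overlap each other. At least 1 of these spellings was present for 15 of the 36 members (41.7%) and for 2.6% of the 27025 genes with a window (2.26% of 32851 windows). CCAAT, the letters of the CCAAT box, was present on either strand for 21 of the 36 members (58.3%) and for 41.1% of all genes. The 180 bases before the start are shown for 6 members, picked after the matches and responses were known, with every E2F match in capitals. Mcm5 and Mcm6 are shown because spellings overlap on opposite strands, and Cdc6 and Gins3 because each has 1 match while only Cdc6 had a large response. Tk1 and Ccne1 are shown because both responded strongly and hold none of these letters in the window.
Mcm5: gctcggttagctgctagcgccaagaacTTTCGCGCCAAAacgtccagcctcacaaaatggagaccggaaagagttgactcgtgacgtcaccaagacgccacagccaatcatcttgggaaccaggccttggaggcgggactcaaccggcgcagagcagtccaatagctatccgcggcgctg
Mcm6: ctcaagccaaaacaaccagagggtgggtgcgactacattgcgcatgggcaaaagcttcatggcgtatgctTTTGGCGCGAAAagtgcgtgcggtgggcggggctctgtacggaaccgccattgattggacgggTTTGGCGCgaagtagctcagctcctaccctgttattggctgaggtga
Cdc6: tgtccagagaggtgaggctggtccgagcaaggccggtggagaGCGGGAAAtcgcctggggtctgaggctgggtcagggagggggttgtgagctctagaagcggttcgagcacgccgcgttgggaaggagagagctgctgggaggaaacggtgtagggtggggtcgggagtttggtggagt
Gins3: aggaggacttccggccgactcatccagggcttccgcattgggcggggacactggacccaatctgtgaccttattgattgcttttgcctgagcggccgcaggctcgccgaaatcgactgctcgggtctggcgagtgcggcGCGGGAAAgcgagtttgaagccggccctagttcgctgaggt
Tk1: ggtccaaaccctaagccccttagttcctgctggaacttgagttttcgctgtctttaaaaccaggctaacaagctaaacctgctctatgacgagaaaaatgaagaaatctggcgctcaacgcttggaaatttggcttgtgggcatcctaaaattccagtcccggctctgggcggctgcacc
Ccne1: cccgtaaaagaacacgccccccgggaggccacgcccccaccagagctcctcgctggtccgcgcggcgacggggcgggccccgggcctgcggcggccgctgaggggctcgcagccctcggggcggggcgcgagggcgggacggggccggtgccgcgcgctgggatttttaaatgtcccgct
All 6 are written 5′ to 3′ on the strand of the gene. They lie at chr8:75109329-75109508 (Mcm5, plus strand), chr1:128359706-128359885 (Mcm6, minus strand), chr11:98907971-98908150 (Cdc6, plus strand), chr8:95633379-95633558 (Gins3, plus strand), chr11:117826015-117826194 (Tk1, minus strand) and chr7:38107491-38107670 (Ccne1, minus strand). A match is a description of letters and not a measured binding site. Of the 27 members with a window that passed the test in the mean response described next, 12 had a match, and of the 9 with a window that did not pass, 3 had one.

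With BAPN+AngII, the members moved upward together. In WT, 20 of the 45 were higher at day 3 than before challenge at a limma adjusted p under 0.05 and none was lower, where 3.59% of all genes tested were called higher. Their adjusted p ranged from 0.0322 to 0.0492, just under the threshold. At an unadjusted p under 0.05, 40 of the 45 were higher, as were 15.9% of all genes. Under the smSocs3-KO label 1 member, Exo1, passed the adjusted threshold (28 at an unadjusted p under 0.05), where 1.71% of all genes were called higher (12.8% unadjusted). In the mean of both responses, which draws on all 12 arrays, 36 of the 45 rose and none fell, where 13.6% of all genes were called higher. The 9 members not called in the mean response were Gins3, Rfc1, Pola1, Pola2, Pold2, Pold3, Prim1, Rpa2 and Tyms. In whole tissue, more cells of a type and more RNA per cell cannot be told apart.

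The members' median difference was 1.45 in WT (from 0.04 to 4.15) and 0.91 under the smSocs3-KO label (from -0.07 to 3.52), while the medians over all genes were -0.02 and -0.06. All 3 day 3 arrays lay above all 3 arrays before challenge for 39 members in WT and for 36 under the smSocs3-KO label. Over all genes tested these shares were 20.7% and 14.1%. By the criterion of an unadjusted p under 0.01 and a change above 4-fold, 14 members were higher in WT, 9 under the smSocs3-KO label and 11 in the mean response (1.11%, 1.44% and 1.18% of all genes). The count in WT rested on single arrays. It was 0 without WT replicate 1 or 2 before challenge, without WT day 3 replicate 1 or 3, or without smSocs3-KO replicate 4 before challenge, 1 without WT replicate 3 before challenge, and 39 without WT day 3 replicate 4 (10.1% of all genes called higher), while 35 to 42 members stayed at an unadjusted p under 0.05 throughout. It was also 8 without smSocs3-KO day 3 replicate 3, 10 without replicate 2 and 12 without replicate 5 of that group. The count in the mean response was 31 to 40 with any array left out and 35 with slide as a block, when 27 members were called in WT and 0 under the smSocs3-KO label (18 at an unadjusted p under 0.05). On slide 1 alone limma called 0 members in the WT response (39 unadjusted), and on slide 2 alone 1, Exo1, in the smSocs3-KO response (27 unadjusted). Except without WT day 3 replicate 4, the shares of all genes called in these refits are not given beside the counts.

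**Figure D1:**
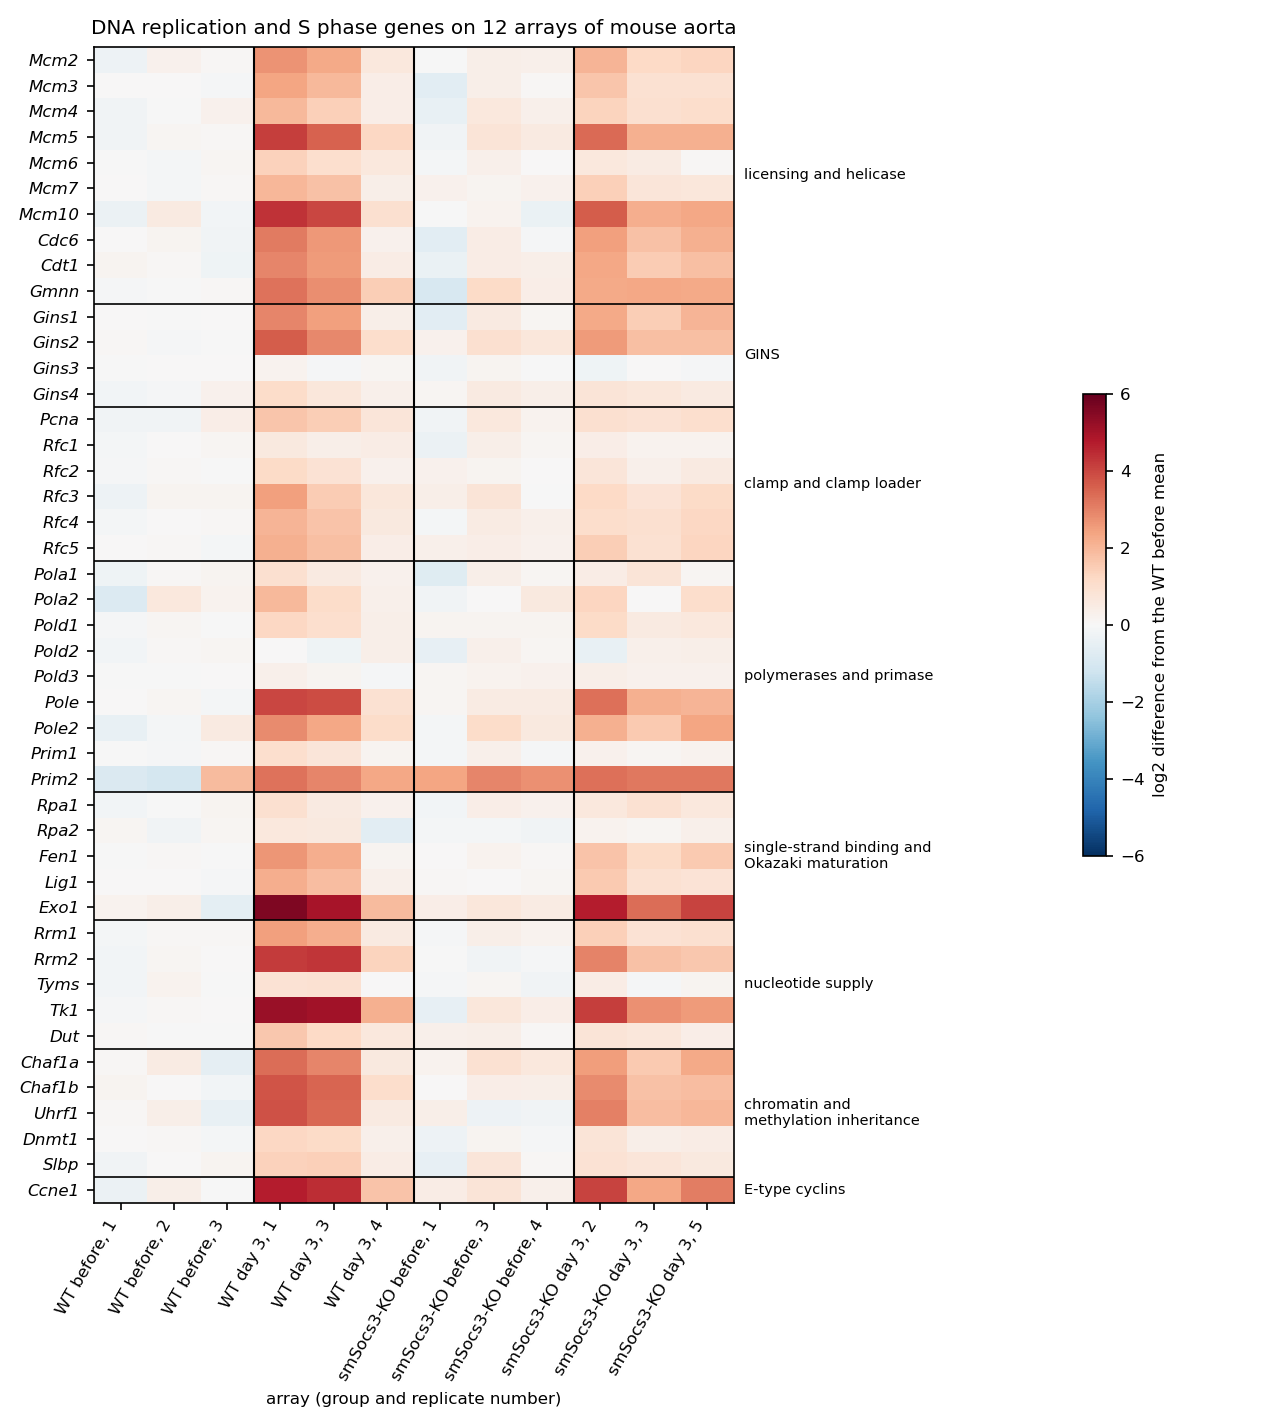
Log2 difference of each of the 45 members from its own mean on the WT arrays before challenge, with 1 row per member, grouped by role, and 1 column per array (red higher, blue lower). WT day 3 replicates 1 and 3 are the strongest columns, WT day 3 replicate 4 is paler, and Gins3, Pold2 and Pold3 stay pale on all arrays.

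Of the 10 licensing and helicase genes, 5 rose in WT (Mcm2, Mcm5, Mcm6, Mcm10 and Gmnn) and all 10 rose in the mean response, with median differences of 1.92 in WT and 1.53 under the smSocs3-KO label. Mcm10, a factor that joins the helicase as it is activated, was -3.50, -2.63 and -3.34 before challenge and 1.17, 0.84 and -2.19 at day 3 in WT, and -3.17, -2.96 and -3.55 before and 0.47, -0.97 and -0.86 at day 3 under the smSocs3-KO label. All day 3 arrays lay above those before challenge in both genotypes, with WT day 3 replicate 4 by far the lowest of them. Its difference was 3.10 in WT (SE 0.75, adjusted p = 0.0442) and 2.77 under the smSocs3-KO label (SE 0.75, adjusted p = 0.0714), the largest mean response of the group (adjusted p = 0.00735).

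Mcm6, a subunit of the MCM2-7 ring, had the smallest mean response of the licensing genes. It was 4.48, 4.38 and 4.61 before and 5.88, 5.52 and 5.10 at day 3 in WT, and 4.38, 4.79 and 4.52 before and 5.13, 4.97 and 4.58 at day 3 under the smSocs3-KO label. The WT groups were apart, whereas the smSocs3-KO groups overlapped through replicate 5. The difference was 1.01 in WT (SE 0.22, adjusted p = 0.0372) and 0.33 under the smSocs3-KO label (SE 0.22, adjusted p = 0.383). The other MCM2-7 subunits differed in WT by 1.26 (Mcm4) to 2.98 (Mcm5). The loading factors Cdc6 and Cdt1 differed by 1.99 and 1.97 in WT and 2.21 and 1.75 under the smSocs3-KO label, and passed only in the mean response (adjusted p = 0.0101 and 0.0105). Gmnn, which encodes the loading inhibitor geminin, rose by 2.5 in WT (adjusted p = 0.0334).

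The GINS complex links the helicase to the polymerase that copies the leading strand. Gins2 was -2.64, -2.78 and -2.71 before and 0.91, 0.19 and -1.65 at day 3 in WT, and -2.47, -1.76 and -2.01 before and -0.16, -0.91 and -0.88 at day 3 under the smSocs3-KO label. Day 3 arrays were above those before challenge in both genotypes, and the difference was 2.53 in WT (SE 0.52, adjusted p = 0.0334) and 1.42 under the smSocs3-KO label (SE 0.52, adjusted p = 0.14). Gins1 and Gins4 passed in the mean response, with differences of 1.91 (adjusted p = 0.011) and 0.52 (adjusted p = 0.0351).

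Gins3, from the same complex, was 4.20, 4.26 and 4.23 before and 4.44, 4.16 and 4.33 at day 3 in WT, and 4.0, 4.42 and 4.20 before and 3.99, 4.25 and 4.16 at day 3 under the smSocs3-KO label. All 4 groups overlapped. Its difference was 0.08 in WT (SE 0.16, adjusted p = 0.777) and -0.07 under the smSocs3-KO label (SE 0.16, adjusted p = 0.789), the only value below 0 among the members' responses in the 2 genotypes, and the 95% interval of its mean response ran from -0.24 to 0.24. The sign of the WT value and of the mean response changed with the scaling, and that of the smSocs3-KO value with the background correction.

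Of the clamp and its loader, Pcna, Rfc3, Rfc4 and Rfc5 rose in WT, and in the mean response 5 of the 6 genes rose, with median differences of 1.37 in WT and 0.72 under the smSocs3-KO label. Pcna, the sliding clamp itself, rose by 1.29 in WT (adjusted p = 0.0372) and differed by 0.74 under the smSocs3-KO label (adjusted p = 0.156). Rfc5, a small loader subunit, was 0.58, 0.59 and 0.42 before and 2.66, 2.33 and 0.92 at day 3 in WT, and 0.82, 0.95 and 0.78 before and 2.02, 1.45 and 1.81 at day 3 under the smSocs3-KO label. The groups were apart in both genotypes, with differences of 1.44 (SE 0.36, adjusted p = 0.0492) and 0.91 (SE 0.36, adjusted p = 0.165). Rfc1, the large loader subunit, was 2.55, 2.66 and 2.75 before and 3.25, 3.01 and 3.08 at day 3 in WT, and 2.31, 3.01 and 2.78 before and 3.03, 2.86 and 2.84 at day 3 under the smSocs3-KO label. Its groups overlapped under the smSocs3-KO label and it was not called in any response (0.47 in WT, adjusted p = 0.14, and 0.21 under the smSocs3-KO label, adjusted p = 0.5).

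In the mean response 4 of the 9 polymerase and primase genes rose, Pold1, Pole, Pole2 and Prim2, and the median difference was 0.87 in WT and 0.54 under the smSocs3-KO label. Pole, the catalytic subunit of the leading-strand polymerase ε, was -1.82, -1.71 and -1.94 before and 2.20, 2.07 and -0.91 at day 3 in WT, and -1.71, -1.32 and -1.32 before and 1.47, 0.33 and 0.20 at day 3 under the smSocs3-KO label. Its groups were apart in both genotypes, with differences of 2.94 (SE 0.68, adjusted p = 0.0404) and 2.12 (SE 0.68, adjusted p = 0.107). Pole2, its second subunit, rose by 2.08 in WT (adjusted p = 0.0372). Pold2, an accessory subunit of the lagging-strand polymerase δ, was -0.09, 0.11 and 0.18 before and 0.08, -0.18 and 0.42 at day 3 in WT, and -0.44, 0.38 and 0.19 before and -0.36, 0.37 and 0.41 at day 3 under the smSocs3-KO label. All 4 groups overlapped, and the difference was 0.04 in WT and 0.10 under the smSocs3-KO label (SE 0.27, adjusted p = 0.94 and 0.839), with a mean response between -0.35 and 0.49 (95% interval). The catalytic subunit of polymerase δ, Pold1, rose by 0.74 in the mean response (adjusted p = 0.014), and another accessory subunit, Pold3, differed by 0.13 (adjusted p = 0.37). The polymerase α genes Pola1 and Pola2 differed by 0.56 and 0.89 in the mean response, with adjusted p of 0.0773 and 0.0851.

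Of the 5 genes for single-strand binding and Okazaki fragment maturation, 4 rose in the mean response. Exo1, an exonuclease that also acts in mismatch repair, was the member with the largest mean response. It was -4.71, -4.57 and -5.51 before and 0.68, 0.00 and -3.03 at day 3 in WT, and -4.54, -4.24 and -4.44 before and -0.21, -1.59 and -0.85 at day 3 under the smSocs3-KO label. All day 3 arrays lay above those before challenge in both genotypes. Its probe (mm9 in the array's design, chr1:177838682-177838741, plus strand) was not well above background on any WT array before challenge, so that it was at least 11.8-fold higher at day 3 in WT, where the measured difference was 4.15 (SE 0.77, adjusted p = 0.0324). Under the smSocs3-KO label it rose by 3.52 (SE 0.77, adjusted p = 0.0428). There its probe was well above background on 2 of the 3 arrays before challenge. Exo1 thus passed the filter only through the day 3 groups, where it was high, as did Pola2.

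Rpa2, a subunit of the single-strand binding protein RPA, was 0.10, -0.22 and 0.11 before and 0.65, 0.59 and -0.66 at day 3 in WT, and -0.11, -0.14 and -0.20 before and 0.22, 0.11 and 0.29 at day 3 under the smSocs3-KO label. WT day 3 replicate 4 was the lowest of all 12 arrays for this gene, and the smSocs3-KO groups were apart. The differences were 0.20 and 0.35 (SE 0.30, adjusted p = 0.693 and 0.476). Fen1, the flap nuclease, and Lig1, the ligase that seals Okazaki fragments, rose by 1.53 and 1.25 in the mean response (adjusted p = 0.0141 and 0.0134).

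Nucleotide supply genes rose in WT for 4 of the 5, Rrm1, Rrm2, Tk1 and Dut, and the same 4 rose in the mean response. Tk1, the S phase thymidine kinase, was -1.59, -1.42 and -1.49 before and 3.68, 3.53 and 0.64 at day 3 in WT, and -1.99, -0.80 and -1.11 before and 2.65, 1.22 and 1.05 at day 3 under the smSocs3-KO label. Day 3 and earlier arrays were far apart in both genotypes, with a 17.4-fold change in WT (4.12 on the log2 scale, SE 0.72, adjusted p = 0.0322) and a 7.67-fold change under the smSocs3-KO label (2.94, SE 0.72, adjusted p = 0.0594). Rrm2, the small subunit of ribonucleotide reductase, rose by 3.28 in WT (adjusted p = 0.0334) and Rrm1, the large subunit, by 1.73 (adjusted p = 0.0409). Tyms, thymidylate synthase, was -2.94, -2.59 and -2.81 before and -1.91, -1.86 and -2.78 at day 3 in WT, and -2.87, -2.66 and -3.01 before and -2.35, -2.85 and -2.63 at day 3 under the smSocs3-KO label. Both pairs of groups overlapped, and Tyms did not pass in any response (0.60 in WT, adjusted p = 0.156, and 0.24 under the smSocs3-KO label, adjusted p = 0.569).

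The 5 chromatin and methylation inheritance genes all rose in the mean response, with median differences of 2.30 in WT and 1.53 under the smSocs3-KO label. Uhrf1, which brings DNA methyltransferase to newly copied DNA, was -0.90, -0.60 and -1.43 before and 2.84, 2.49 and -0.43 at day 3 in WT, and -0.61, -1.27 and -1.19 before and 2.06, 0.86 and 1.01 at day 3 under the smSocs3-KO label. The groups were apart in both genotypes, and the differences were 2.61 and 2.33 (SE 0.71, adjusted p = 0.0586 and 0.0945; 0.0102 in the mean response). Dnmt1, that methyltransferase, had the smallest mean response of these genes, at -0.76, -0.75 and -0.90 before and 0.45, 0.35 and -0.49 at day 3 in WT, and -1.11, -0.62 and -0.88 before and -0.02, -0.46 and -0.35 at day 3 under the smSocs3-KO label. Its groups were apart too, with differences of 0.90 and 0.59 (SE 0.25, adjusted p = 0.059 and 0.181; 0.0154 in the mean response). The histone chaperone subunit Chaf1b was the only one of the 5 called in the WT response, where it rose by 2.77 (adjusted p = 0.035).

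Ccne1, the cyclin that with CDK2 drives entry into S phase, was -3.12, -2.41 and -2.80 before and 1.93, 1.65 and -1.07 at day 3 in WT, and -2.32, -2.00 and -2.47 before and 1.28, -0.45 and 0.29 at day 3 under the smSocs3-KO label. All day 3 arrays lay above those before challenge. The change was 12.3-fold in WT (3.62 on the log2 scale, SE 0.69, adjusted p = 0.0329) and 6.22-fold under the smSocs3-KO label (2.64, SE 0.69, adjusted p = 0.0671), and the mean response passed (adjusted p = 0.00526).

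**Figure D2:**
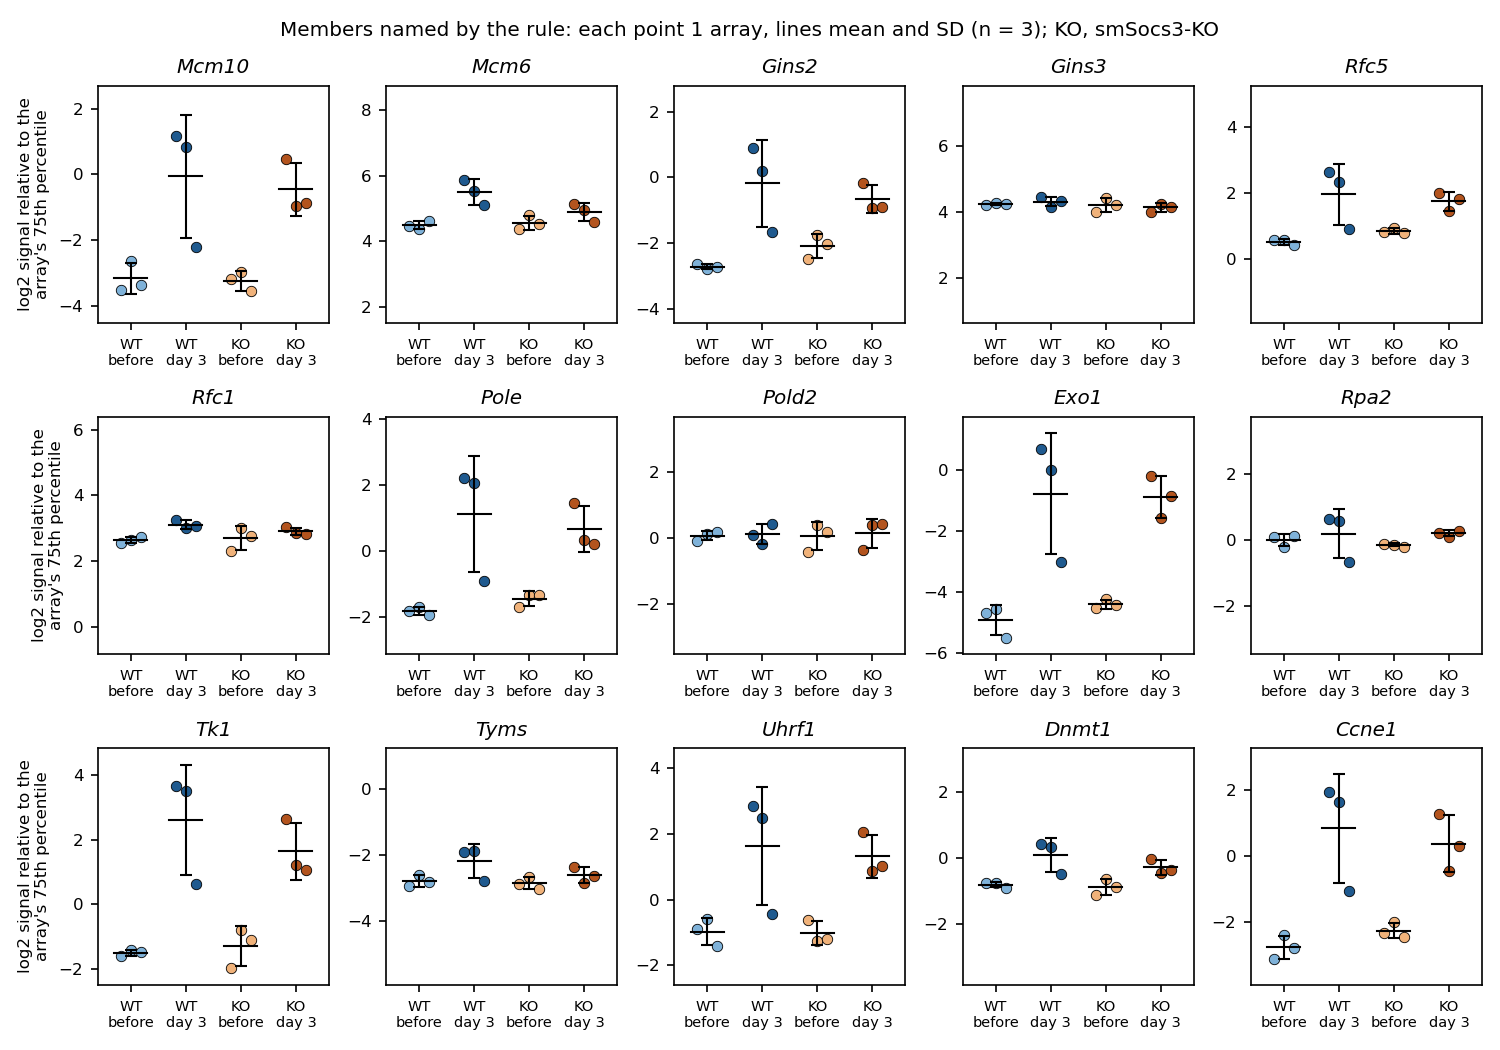
Log2 signal relative to the 75th percentile of the array for the members with the largest and the smallest mean response in each role, with 1 point per array and lines for the mean and SD of 3 arrays. Tk1, Exo1 and Ccne1 separate day 3 from before challenge in both genotypes, whereas Gins3 and Pold2 overlap in all 4 groups.

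**Figure D3:**
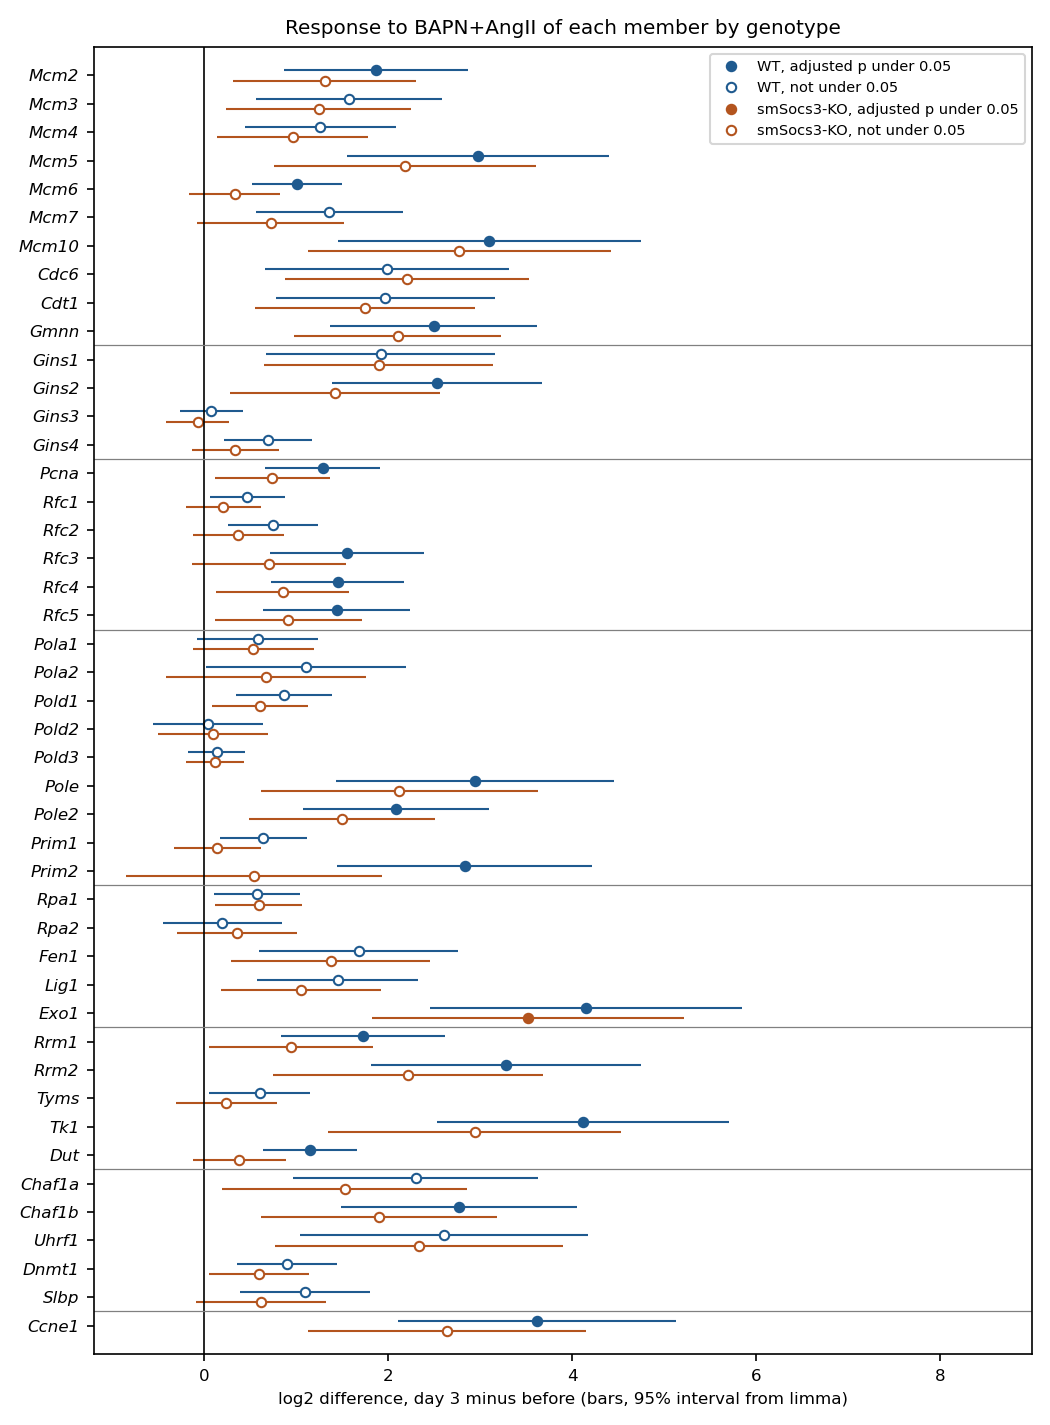
Log2 difference between day 3 and before challenge for each of the 45 members, WT in blue and smSocs3-KO in orange, with 95% intervals from limma and filled points at an adjusted p under 0.05. In WT 20 points are filled and under the smSocs3-KO label 1, Exo1.

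Several members had more than 1 probe, and not all probes moved alike. The 2 probes of Tk1 differed by 4.12 and 4.40 in WT and 2.94 and 2.67 under the smSocs3-KO label, and those of Mcm3, Cdc6, Rfc4, Chaf1b, Rpa1 and Slbp were also of one direction. The second probe of Ccne1 (mm9, chr7:38885574-38885633, minus strand) differed by 0.14 and 0.45 in the 2 genotypes, that of Rfc5 by 0.03 and 0.10, and that of Dut by 0.03 and -0.42. For these 3 genes the response held for the brighter probe only.

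Prim2, the large primase subunit, was singled out after its values were seen. Its brighter probe (mm9, chr1:33510733-33510792, minus strand) was -3.27, -3.49 and -0.51 before and 0.86, 0.49 and -0.12 at day 3 in WT, and -0.06, 0.49 and 0.33 before and 0.90, 0.74 and 0.74 at day 3 under the smSocs3-KO label. WT replicates 1 and 2 before challenge stood far below the other 10 arrays. The difference of this probe in WT was 2.83 (SE 0.63, adjusted p = 0.0378), whereas the other probe (mm9, chr1:33535912-33535971, minus strand) differed by 0.26 in WT and -0.13 under the smSocs3-KO label. What set the probes apart was not tested.

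Between genotypes, no member passed the adjusted threshold at either time. In the groups before challenge, smSocs3-KO replicates 3 and 4 lay on slide 2 and every WT array on slide 1. The members' mean, above the WT mean before challenge, was 0.46 and 0.24 on these replicates and -0.05 on smSocs3-KO replicate 1, from slide 1. Before challenge, limma called 0 members (1 at an unadjusted p under 0.05, Prim2), where 0.0264% of all genes were called (1.88% higher at an unadjusted p under 0.05), and the median difference, smSocs3-KO minus WT, was 0.15. All 3 smSocs3-KO arrays lay above all 3 WT arrays for 7 members, Mcm7, Gins2, Rfc5, Pold1, Pold3, Prim2 and Exo1, and below for none, against 6.48% above over all genes. Of these, Exo1 was not well above background on any WT array before challenge. Prim2 was read from its brighter probe, which stood far lower on WT replicates 1 and 2 before challenge. At day 3 limma called 0 members (2 at an unadjusted p under 0.05, Mcm6 and Dut, the lowest adjusted p being 0.225), where 1.11% of all genes were called. Both were lower under the smSocs3-KO label, as were 8.42% of all genes at an unadjusted p under 0.05. The median difference was -0.33, from -1.16 (Rrm2) to 0.39 (Prim2), and 38 of the 45 members and 59.5% of all genes were lower under the smSocs3-KO label. The groups overlapped for all 45 members, where the smSocs3-KO arrays were all below the WT arrays for 12.7% of all genes and all above for 7.86%.

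For the members, WT day 3 replicate 4 stood apart from the other arrays of its group. The counts of array order given next were not taken over all genes, so whether they are particular to the members was not tested. For 34 members both other WT day 3 arrays lay above all 3 smSocs3-KO arrays, while replicate 4 lay below all 3 for 36 members and above all 3 for 3. Replicate 4 was still above every WT array before challenge for 41 members. Without it, 4 members were lower at day 3 under the smSocs3-KO label, Rrm2 by -2.14 (adjusted p = 0.0179), Rrm1 by -1.22, Chaf1b by -1.47 and Fen1 by -0.95, and 32 were lower at an unadjusted p under 0.05. Of all genes, 1.29% were then called lower and 11.2% were lower at an unadjusted p under 0.05. Leaving out any other array gave 0, as did every other setting, including slide as a block without this same array. Replicate 4 was singled out after its values were seen, and genotype and slide cannot be told apart at day 3. Without this WT array 23 members were called in the smSocs3-KO response, and 5.48% of all genes were then called higher. No smSocs3-KO array had changed, while the pooled spread and the genes tested (22938) had. What brought these calls was not tested.

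The response was larger in WT than under the smSocs3-KO label for 41 of the 45 members and for 56% of all genes, with a median difference of responses, smSocs3-KO minus WT, of -0.43 and a range from -2.29 (Prim2) to 0.22. No single difference of responses passed limma's adjusted threshold (2 at an unadjusted p under 0.05, Prim2 and Dut, the lowest adjusted p being 0.915), and 0% of all genes did. Both were smaller under the smSocs3-KO label, as were 2.65% of all genes at that unadjusted p. The count of 41 was 31 without WT day 3 replicate 1 (56.2% of all genes), when the median was -0.17. It was 44 without replicate 4 (56.3% of all genes), when the median was -0.96 and 28 members and 4.92% of all genes were smaller at an unadjusted p under 0.05. The members ranked alike in both genotypes, whose responses share no array. Pearson's r was 0.92 and Spearman's rho 0.92 across 45 genes, which are not independent replicates.

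**Figure D4:**
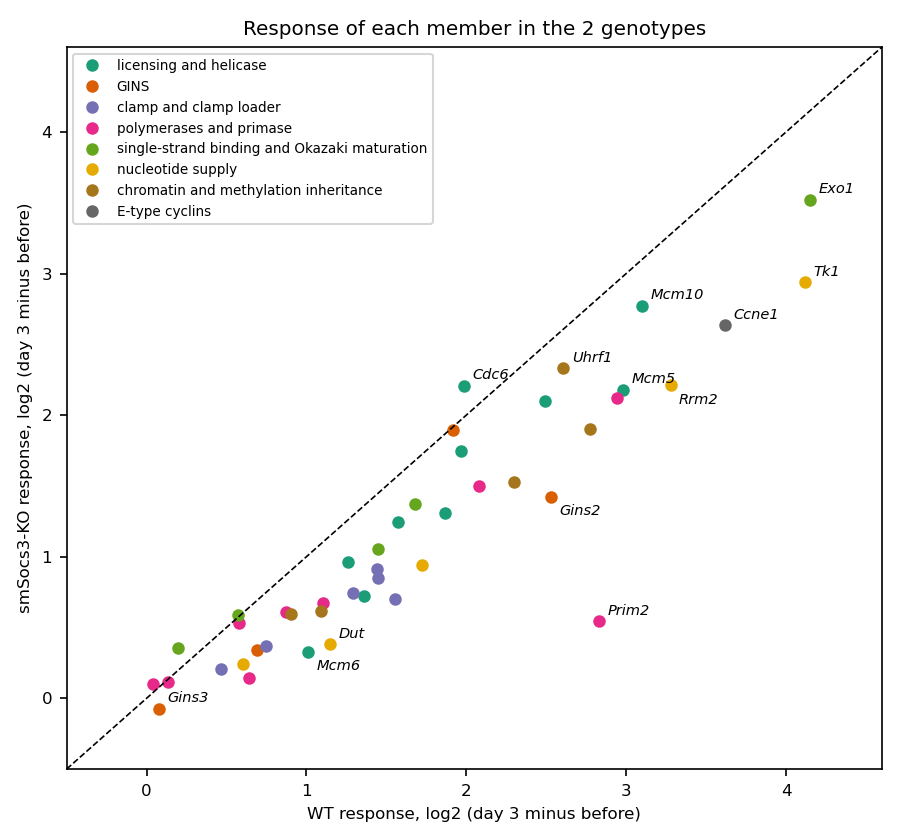
Log2 response to BAPN+AngII of each of the 45 members in WT (horizontal axis) and under the smSocs3-KO label (vertical axis), coloured by role, with a dashed line of equal response. Below the line lie 41 members, Prim2 farthest from it, and Gins3, Pold2 and Pold3 lie near 0 on both axes.

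The members also moved together between arrays of 1 group. Their mean, above the WT mean before challenge, was -0.11, 0.06 and 0.05 before and 2.37, 2.01 and 0.63 at day 3 in WT, and -0.05, 0.46 and 0.24 before and 1.71, 1.16 and 1.29 at day 3 under the smSocs3-KO label. WT day 3 replicate 4 was the lowest array of its group for 42 of the 45 members and replicate 1 the highest for 41. Under the smSocs3-KO label, replicate 2 was the highest day 3 array for 36 members. Before challenge under that label, replicate 1, the array on slide 1, was the lowest for 32 members. Over the 12 arrays the median correlation between members was 0.88. It was 0.80 with group means subtracted and 0.53 when WT day 3 replicate 4 was also left out, values that describe genes measured on the same arrays. Neither the array order nor the correlations were taken over all genes, so whether they are particular to the members was not tested.

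Genes of the same process that were not members, were read from lists chosen with earlier results of these data known. Of 36 other replication genes tested, 16 rose and 1 fell in the mean response, with a median of 0.61 in WT and 0.37 under the smSocs3-KO label. Asf1b and Top2a had the largest mean responses of this list, 3.36 and 3.32, and Orc4 and Rrm2b the smallest, both -0.54. Of 16 genes of E2F and the pocket proteins, 8 rose in the mean response, led by Ccna2 (3.55) and E2f8 (3.39), with Rbl2 (-0.52) and Tfdp2 (-0.30) the smallest. Of 21 mitosis genes, 20 rose in the mean response and 19 in WT, with medians of 3.67 and 2.03 in the 2 genotypes, Cdk1 (4.26) and Nuf2 (4.20) the largest and Ndc80 (0.56) and Bub3 (0.59) the smallest. Relative to the WT arrays before challenge, the mitosis genes averaged 4.32, 4.31 and 1.81 on the WT day 3 arrays and 2.93, 1.87 and 1.41 on the smSocs3-KO ones. As for the members, replicate 4 was the lowest WT array at day 3 and replicate 2 the highest smSocs3-KO array, but smSocs3-KO replicate 5 was the lowest of all day 3 arrays for the mitosis genes and WT replicate 4 for the members.

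Lists of cell type markers were read on the same arrays. The mean of 6 macrophage markers, above the WT mean before challenge, was 1.44, 1.04 and 0.10 at day 3 in WT and 1.39, 1.17 and 1.29 under the smSocs3-KO label, and -0.01 to 0.26 on all arrays before challenge. In the mean response 5 of these 6 markers rose, and at day 3 WT replicate 4 was the lowest array for them, as it was for the members. All 6 smooth muscle markers were well above background on all 12 arrays and 1, Myh11, fell in the mean response. Their mean was -0.73, -0.63 and 0.02 at day 3 in WT and -0.61, -0.47 and -0.95 under the smSocs3-KO label, again with replicate 4 near the level before challenge. The mean of the 5 neutrophil markers was 0.49, 0.41 and 1.57 on the WT day 3 arrays, highest on replicate 4. Under the smSocs3-KO label it was 3.28, 0.90 and 2.04 at day 3. The mean of the 4 T cell and thymocyte markers lay between -1.97 and -0.76 on all 6 day 3 arrays and between -1.02 and 0.60 before challenge. The mesothelial mean was 1.35 to 2.86 on all smSocs3-KO arrays and -2.05 to 0.90 on all WT arrays. The adipocyte mean was -1.77, 1.68 and 0.39 at day 3 in WT, lowest on replicate 1, and -0.61, 1.24 and 0.91 under the smSocs3-KO label. B cell, erythroid, adrenal cortex and striated muscle markers were also read and are not described. Over all 12 arrays the mean of the 6 endothelial markers lay between -0.51 and 0.17 and that of the 6 fibroblast markers between -0.10 and 0.68. Single markers varied more. Between genotypes at day 3, smSocs3-KO minus WT, they differed by -0.77 to 0.76 (endothelial) and -0.46 to 1.99 (fibroblast). The part of these cell types in the members' values was not tested.

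**Figure D5:**
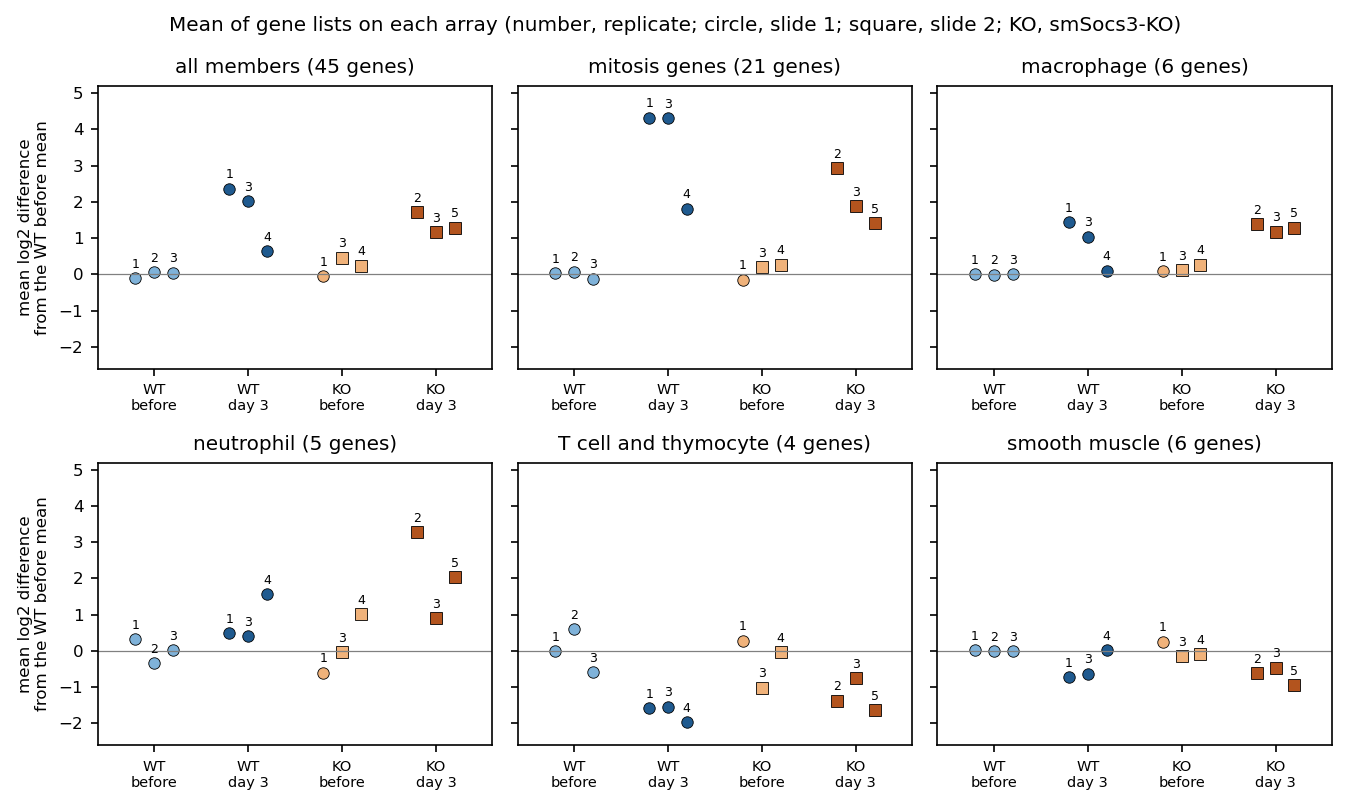
Mean log2 difference from the WT mean before challenge on each of the 12 arrays for the members, the mitosis genes and 4 lists of cell type markers, with replicate numbers beside the points, circles for slide 1 and squares for slide 2. WT day 3 replicate 4 lies at 0.63 for the members and 0.10 for the macrophage markers, below the other WT day 3 arrays in both panels.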

How the data were processed

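Labelled cRNA of 12 aortic samples was hybridised to one-colour Agilent arrays by the authors. The deposited scanner files hold processed, mean and background intensity per spot, and their headers name Feature Extraction 10.7.1.1 (9.5.1.1 in the submitters' processing notes). The authors' own normalized table, on an intensity scale whose columns share the same sorted values, was used as an alternative only.

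Control spots and outlier flags were left out, spots of a probe averaged, and log2 of the deposited processed signal minus the 75th percentile of each array computed. Of 55681 probes, 32283 were kept, namely those that some group detected well above background on each of its 3 arrays. Each of 22761 genes was read from its kept probe of highest mean signal. All 12 arrays entered a model with 4 group means (limma 3.58.1 in R 4.3.3, python 3.11.15), with Benjamini-Hochberg adjustment over all genes and a threshold of 0.05. An unadjusted p under 0.01 with a 4-fold change was also counted. Genes with all values given were the largest and smallest mean response of each role and any response below 0. Precision is limited by 3 arrays per group. Alternatives covered background, scaling, filter, probe choice, variance, arrays, slide and replicate number. Members and lists were chosen with earlier results of these data known. Scripts were tested on simulated data.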

Additional observations from a re-analysis of the deposited data

How the results depend on the processing

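The members' upward direction in the mean response held in every alternative for all but Gins3, Pold2 and Pold3, whereas the counts of calls in each genotype alone depended on the setting. The WT count of 20 was 11 with the 75th percentile taken over detected probes, which moved the median of all genes in WT to -0.18, and by limma 0 without the filter on dim probes, with the compared groups only or on slide 1 only (39, 38 and 39 at an unadjusted p under 0.05). With slide as a block and without WT day 3 replicate 4, chosen after seeing the data, it was 39. With 1 array left out it ranged from 0 to 39. The smSocs3-KO count of 1 was 9 by the 4-fold criterion, 4 with a variance trend, 11 with the compared groups only, 20 with the slide block and without WT day 3 replicate 4, and 0 with that percentile, without the filter, with probes above background on all 12 arrays or with the slide block (24, 28, 25 and 18 unadjusted), and ranged from 0 to 23 with 1 array left out. The setting of probes above background on all 12 arrays left out Exo1, the only member called under the smSocs3-KO label, before testing. The mean count of 36 was 11 by the 4-fold criterion and 31 to 40 with 1 array left out. The count between genotypes before challenge was 1 by that criterion and 0 to 1 with 1 array left out, that at day 3 was 0 to 4, and that of the difference of responses 0 throughout. For most of these settings, and for the replicate block below, the share of all genes called is not given. Those counts describe the members only.

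Arrays with the same replicate number deviated with correlations of -0.40 to 0.46. These were not set against arrays of unlike number, so whether the numbers pair arrays was not tested. With a replicate block the counts were 0 in WT (38 unadjusted), 0 under the smSocs3-KO label (4) and 13 in the mean response. Under this block the smSocs3-KO values turned to -0.13 for Pola2, -0.046 for Prim1 and -0.17 for Tyms, Pold2 was -0.14 in WT and -0.024 in the mean response, Gins3 -0.0094 in the mean response, and the difference of responses of Rpa2 was -0.19.

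Signs changed otherwise for small values and for differences of responses. Gins3 in WT was -0.14 after quantile normalization, -0.082 with the percentile of detected probes and -0.14 in the authors' table, and in the mean response -0.16, -0.13 and -0.16, and with the slide block -0.050 (-0.055 also without WT day 3 replicate 4). Under the smSocs3-KO label Gins3 was 0.015 with normexp. Pold2 with the percentile of detected probes was -0.12 in WT, -0.012 under the smSocs3-KO label and -0.067 in the mean response. With the slide block it was -0.14 under that label, on slide 2 only and without WT day 3 replicate 4 too, and -0.052 and -0.13 in the mean response, and -0.12 in WT without that array. Pold3 with that percentile was -0.025 in WT and -0.0095 in the mean response. With normexp the smSocs3-KO values were -0.029 for Pola2 and -0.051 for Tyms, and Dut was -0.020 with the mean of its probes. The difference of responses was -0.18 for Pold2 with the slide block and -0.024 also without WT day 3 replicate 4, when that of Rpa2 was -0.25. With 1 array left out, Gins3 ranged from -0.18 to 0.033 under the smSocs3-KO label and -0.050 to 0.055 in the mean response, Pold2 from -0.12 to 0.18 in WT, -0.14 to 0.35 under that label and -0.052 to 0.19 in the mean response, and Rpa2 from -0.029 to 0.62 in WT. The differences of responses then ranged from -1.75 to 0.11 for Exo1, -1.39 to 0.29 for Mcm10, -1.31 to 0.33 for Uhrf1, -0.27 to 0.38 for Rpa2 and -0.18 to 0.31 for Pold2. The cause of these changes was not tested.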
